A study of Mus musculus with 60 samples.

Results

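The 37 genes described here copy nuclear DNA or make its building blocks. They cover the licensing of replication origins, the Mcm helicase and its cofactors, the DNA polymerases, the sliding clamp and its loader, lagging strand processing, chromatin assembly and deoxynucleotide synthesis. They were chosen by name, with earlier results of these data known, and all 37 were found among the 22869 gene symbols of the count table.

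Replication starts when the origin recognition complex, Cdc6 and Cdt1 load rings of Mcm proteins onto DNA. Cofactors such as Mcm10 and the GINS complex then turn these rings into active helicases, polymerases copy the strands behind the clamp Pcna, and ribonucleotide reductase supplies the deoxynucleotides. Most of these genes are transcribed as cells enter S phase, many of them under control of E2F factors. Microglia, the resident macrophages of the brain, multiply in the embryonic and early postnatal brain and divide rarely in the healthy adult.

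Polyadenylated RNA of microglia from C57BL/6N mice was sequenced in 60 libraries, with sex as in the library titles. Untreated animals gave 4 male and 3 female libraries at embryonic day 18 (E18), 4 male and 4 female at postnatal day 4 (P4), and 10 male and 10 female at P14. At P60, 7 male and 6 female libraries came from animals given lipopolysaccharide (LPS, a bacterial cell wall component), and 5 male and 7 female from animals given saline. None of the sources used here gives the LPS dose, the time after injection, the method of isolation or the number of animals behind a library, so the spread between libraries may be partly technical.

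Libraries held 802016 to 3497454 counts. Summed microglial markers, such as Cx3cr1 and P2ry12, were at 3676 to 6725 CPM (a gene's counts in every 1000000 of its library) at E18 and 8015 or more at each later stage. Title and sex characteristic differed in 10 libraries, and the title was used. Ttr, a transcript of the choroid plexus, held more than 10% of counts in male E18 replicates 3 and 4 and in female P60 saline replicate 6. No date in the sample descriptions covered more than 1 stage, or both LPS and saline, so stage or treatment and date cannot be told apart.

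Summed over the 37 genes, the level was 1670 ± 392 CPM at E18 (SD, n = 7), 1717 ± 196 CPM at P4 (n = 8), 642 ± 91.6 CPM at P14 (n = 20) and 456 ± 42.1 CPM at P60 with saline (n = 12). Every P14 library, at most 784 CPM, lay below every P4 library, at least 1407 CPM. The P14 and P60 saline libraries overlapped, with ranges of 497 to 784 CPM and 409 to 561 CPM. In bulk RNA, fewer cells of a type and less RNA per cell cannot be told apart.

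**Figure D1:**
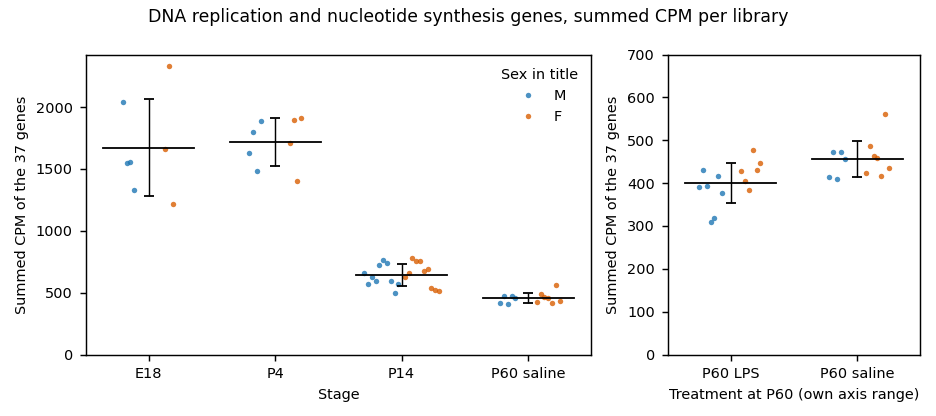
Summed CPM of the 37 genes in each library (points, coloured by the sex in the title), with the mean and SD of each stage as bars. Libraries at E18 and P4 lie at 1218 CPM or above and those at P14 at 784 CPM or below. The right panel sets P60 LPS beside P60 saline on its own axis.

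The drop came between P4 and P14. At P14 against P4, 34 of the 37 genes fell and none rose (edgeR quasi-likelihood test across all genes, Benjamini-Hochberg adjusted p under 0.05), whereas 20.8% of all 13853 genes tested fell and 20.6% rose. With DESeq2 size factors 35 of the 37 genes fell, and the split of all calls shifted to 2184 rises and 3634 falls, against 2856 and 2888 here. The median log2 fold change was -1.28 for the 37 genes and -0.01 for all genes, and 26 of the genes fell at least 2-fold. For 23 genes every P14 library was below every P4 library, which held for 4.55% of all genes tested.

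All 9 helicase genes fell at P14, with a median log2 fold change of -1.62. Mcm10, which helps to activate the helicase, had 0 to 10.7 CPM at P14 (median 2.63) against 13.5 to 42.5 CPM at P4 (median 25.7). Its log2 fold change was -2.63 ± 0.30 (SE; adjusted p = 1.56e-09), and the P14 and P4 libraries did not overlap. Mcm2, a ring subunit, had 10.9 to 34.0 CPM at P14 (median 23.2) against 53.0 to 86.6 CPM at P4 (median 82.0). Mcm6, another ring subunit, had 23.5 to 54.4 CPM at P14 (median 30.3) against 105 to 167 CPM at P4 (median 140). Neither ring gene overlapped between the stages, and their log2 fold changes were -1.46 ± 0.16 and -1.72 ± 0.13 (adjusted p = 1.35e-09 and 5.89e-14).

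All 5 nucleotide synthesis genes fell as well, with a median log2 fold change of -1.54. Rrm2, the small subunit of ribonucleotide reductase that cells make in S phase, had 4.303 to 33.8 CPM at P14 (median 12.8) against 64.5 to 119 CPM at P4 (median 86.4). The libraries did not overlap, and the log2 fold change was -2.49 ± 0.23 (adjusted p = 6.38e-12). Rrm1, the large subunit, fell by 1.54 ± 0.12 on the log2 scale (adjusted p = 3.95e-14). Dut, which removes dUTP, thymidine kinase Tk1 and thymidylate synthase Tyms had log2 fold changes of -1.73, -1.50 and -1.18.

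Of the 4 licensing genes, Orc1, Cdc6 and Orc6 fell at P14. Orc1, the largest subunit of the origin recognition complex, had 0 to 3.02 CPM at P14 (median 1.04) against 6.45 to 13.6 CPM at P4 (median 11.3). Its log2 fold change was -2.59 ± 0.33 (adjusted p = 2.21e-08), with no overlap between the stages. Orc6 had the smallest change among them, with a log2 fold change of -0.48 ± 0.15 (adjusted p = 0.00973).

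Both subunits of chromatin assembly factor 1, which deposits histones behind the fork, fell about 4-fold. Chaf1a had 3.97 to 16.4 CPM at P14 (median 8.04) against 36.7 to 51.1 CPM at P4 (median 38.2), a log2 fold change of -1.97 ± 0.17 (adjusted p = 8.13e-13). Chaf1b had 0 to 8.38 CPM at P14 (median 2.86) against 12.2 to 22.8 CPM at P4 (median 16.8), a log2 fold change of -1.99 ± 0.29 (adjusted p = 4.48e-07). Neither gene overlapped between P14 and P4. Exons of a gene on the opposite strand cover 52.5% of Chaf1a, so its counts are uncertain if strand was not used in counting.

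Of 8 polymerase genes 7 fell. Pole, the catalytic subunit of the leading strand polymerase epsilon, had 3.306 to 22.1 CPM at P14 (median 10.1) against 34.0 to 68.5 CPM at P4 (median 46.3), without overlap. Its log2 fold change was -2.03 ± 0.22 (adjusted p = 4.19e-10), while that of Pola2, a subunit of the priming polymerase alpha, was -0.54 ± 0.17 (adjusted p = 0.00954). All 4 lagging strand genes fell, among them DNA ligase Lig1 by 1.66 ± 0.15 and flap nuclease Fen1 by 1.17 ± 0.16 on the log2 scale. The 4 clamp loader genes Rfc2 to Rfc5 fell, with log2 fold changes between -1.28 and -0.45.

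Pcna, Cdt1 and Pold2 did not pass the test at this step, and were singled out after their values were seen. Pcna, the sliding clamp, had 57.3 to 122 CPM at P14 (median 74.3) against 55.9 to 105 CPM at P4 (median 73.6), a log2 fold change of 0.36 ± 0.15 (adjusted p = 0.0604). Cdt1, which loads the Mcm ring, had 7.99 to 69.2 CPM at P14 (median 25.4) against 20.2 to 29.0 CPM at P4 (median 26.0), a log2 fold change of 0.39 ± 0.24 (adjusted p = 0.183). Pold2, the second subunit of polymerase delta, had 5.71 to 15.3 CPM at P14 (median 8.99) against 12.5 to 17.0 CPM at P4 (median 15.8), a log2 fold change of -0.37 ± 0.17 (adjusted p = 0.0735). All 3 genes overlapped between the stages, and their calls moved with the method: with the replicate number as a block Cdt1 and Pcna passed as higher at P14 (log2 fold changes of 0.69 and 0.48), limma-voom also called Pcna as higher (0.35). The labels do not say that replicate numbers pair libraries across stages. Pold2 passed as lower with DESeq2 (-0.49), with limma-voom (-0.40) and with DESeq2 size factors in edgeR (-0.49). Over all alternatives Pold2 gained a call in 10, Pcna in 6 and Cdt1 in 2.

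**Figure D2:**
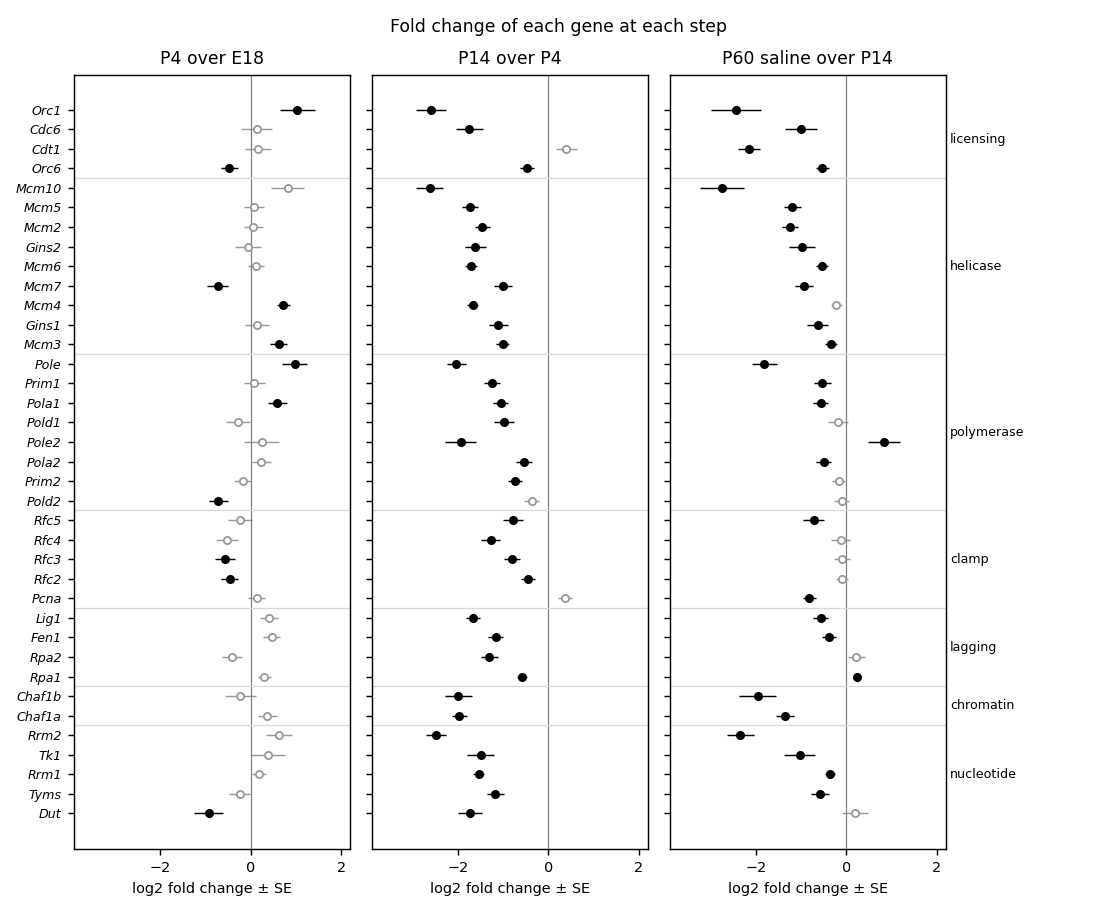
Log2 fold change ± SE of each gene at the 3 steps between stages, with genes ordered by role and, within a role, by the level kept at P60. Filled points passed the test at an adjusted p under 0.05. At P14 against P4 all helicase and nucleotide synthesis genes lie left of 0, while Pcna and Cdt1 lie to its right.

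Other genes moved at the same step. Of the summed marker lists, that of neural progenitors was at 1080 to 1606 CPM at P14 against 1650 to 2370 CPM at P4, and that of neutrophils at 69.0 to 620 CPM against 289 to 8581 CPM. Of their markers 7 of 10 and 7 of 8 fell, and none was at 0 in every library of either stage, while all 8 microglial markers rose. Astrocyte markers summed to 119 to 1239 CPM at P14 against 806 to 1684 CPM at P4, with 7 of 8 lower and 1 higher. Of the neuronal markers 6 of 9 fell, of the monocyte markers 5 of 7, of the border macrophage markers 4 of 8 (1 rose), of the erythroid markers 2 of 3 and of the endothelial markers 2 of 8. Of the oligodendrocyte lineage markers 3 of 8 rose and 1 fell, and of the choroid plexus markers 1 rose and 1 fell. The part of these cells in the fall of the replication genes was not tested.

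Promoters of these genes were read from the RefSeq promoter table of build GRCm38.p6, which covers 250 bases before to 50 after each start and held 31 of the 37 genes. Mcm4, Gins1, Gins2, Rfc2, Prim2 and Pole had no entry. The letters TTTCGCGC, TTTGGCGC, TTTCCCGC and TTTGCCGC, which are of the E2F type, were searched on both strands. At least 1 of them was present in 12 of the 31 genes (38.7%) and in 2.6% of the 27025 genes of the table. The NF-Y box CCAAT was present in 18 of the 31 genes (58.1%) and in 41.1% of all genes, and the letters TTTGAA of the CHR element in 3 (9.7%) and 20.2%. Genes of the further lists described below were read where they had an entry. E2F type letters were in 29.0% of their replisome genes, 41.2% of S phase control genes, 4.2% of nucleotide genes and 9.1% of mitosis genes. Over these lists CCAAT was present in 41.7% to 90.9% of genes and TTTGAA in 12.5% to 63.6%, both highest for mitosis genes.

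Promoters are shown for 4 genes that fell at P14 and have an E2F type match (Mcm5, Mcm6, Orc1 and Rfc3). Also shown are Rrm2, which fell strongly and has none, and Pcna, which has none and kept its level. Of genes not shown, Cdt1 has a match after the start and did not pass at P14, and Pold2 has none and did not pass. Mcm10, Chaf1a and Chaf1b fell strongly and have none. Each sequence is the 160 bases before the start, 5′ to 3′ on the gene's strand, and capitals mark E2F type letters and CCAAT on either strand.
Mcm5, chr8:75109349-75109508, plus strand: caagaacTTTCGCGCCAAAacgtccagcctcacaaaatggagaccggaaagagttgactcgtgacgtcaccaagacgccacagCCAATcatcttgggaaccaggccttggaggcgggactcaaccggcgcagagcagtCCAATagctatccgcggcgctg
Mcm6, chr1:128359706-128359865, minus strand: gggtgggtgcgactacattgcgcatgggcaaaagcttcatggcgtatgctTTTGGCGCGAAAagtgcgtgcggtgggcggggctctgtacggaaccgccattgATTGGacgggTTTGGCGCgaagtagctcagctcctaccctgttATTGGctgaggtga
Orc1, chr4:108579294-108579453, plus strand: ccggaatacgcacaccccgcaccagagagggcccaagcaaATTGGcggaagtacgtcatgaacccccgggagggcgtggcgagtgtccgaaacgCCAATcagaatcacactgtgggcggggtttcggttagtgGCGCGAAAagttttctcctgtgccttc
Rfc3, chr5:151651209-151651368, minus strand: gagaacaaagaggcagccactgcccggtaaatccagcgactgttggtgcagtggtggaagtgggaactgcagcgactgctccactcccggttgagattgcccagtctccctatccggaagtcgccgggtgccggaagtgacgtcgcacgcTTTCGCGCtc
Rrm2, chr12:24708094-24708253, plus strand: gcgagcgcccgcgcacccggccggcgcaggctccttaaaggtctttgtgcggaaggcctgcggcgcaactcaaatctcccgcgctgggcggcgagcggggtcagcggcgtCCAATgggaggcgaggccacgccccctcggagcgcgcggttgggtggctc
Pcna, chr2:132253181-132253340, minus strand: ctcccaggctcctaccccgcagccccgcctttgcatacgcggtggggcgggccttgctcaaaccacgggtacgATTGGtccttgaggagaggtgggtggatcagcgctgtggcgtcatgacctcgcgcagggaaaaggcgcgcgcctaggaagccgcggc
In Mcm5 and in Mcm6, matches on opposite strands overlap and are written as 1 run of capitals. The level kept at P60 with saline, as a percent of P4, had a median of 22.4% over the 12 genes with an E2F type match and of 27.8% over the 19 without, with ranges of 1.64% to 44.8% and 1.57% to 64.1% that overlapped almost wholly. A match is a description of letters, and no match says only that these letters are not in this window.

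Between P14 and P60 the genes parted. At P60 with saline against P14, 26 of the 37 genes fell, against 25.7% of all genes tested, 2 rose, against 18.5%, and 9 did not pass. Without the 4 saline libraries dated 4.3.14 (male replicates 3 and 4, female replicates 6 and 7), 16 fell and 1 rose. The median log2 fold change was -0.57 for the 37 genes and -0.06 for all genes. For none of the 37 genes was every P60 saline library below every P14 library, which held for 1.81% of all genes tested. All 4 licensing genes, 8 of 9 helicase genes, 4 of 5 nucleotide synthesis genes and both chromatin assembly genes fell, against 4 of 8 polymerase genes, 2 of 5 clamp genes and 2 of 4 lagging strand genes.

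Cdt1 fell at this step and not at the one before. It had 1.01 to 12.1 CPM at P60 with saline (median 5.34) against 7.99 to 69.2 CPM at P14 (median 25.4). The log2 fold change was -2.16 ± 0.25 (adjusted p = 1.72e-09), and the libraries overlapped at the low end of P14. Pcna, too, was lower at P60, with 28.7 to 78.6 CPM (median 41.9) against 57.3 to 122 CPM at P14 (median 74.3), a log2 fold change of -0.82 ± 0.14 (adjusted p = 7.63e-06). Whether the change of these genes differed between the 2 steps was not tested. Markers of other cells moved at the same step. Of the neuronal markers 7 of 9 fell, with sums of 8.83 to 31.8 CPM at P60 with saline against 15.3 to 283.5 CPM at P14, and of the astrocyte markers 6 of 8 fell and 1 rose, with sums of 145 to 278.5 CPM against 119 to 1239 CPM. Falls numbered 5 of 8 for endothelial, 5 of 8 for border macrophage, 4 of 8 for oligodendrocyte lineage, 4 of 8 for neutrophil, 4 of 7 for monocyte (1 rose) and 4 of 10 for neural progenitor markers (1 rose). The summed neural progenitor list was nonetheless higher by its median at P60 with saline. It was at 1378 to 2316 CPM (median 1740), against 1080 to 1606 CPM at P14 (median 1371), although Neurog2 was at 0 in every P60 saline library. The median log2 fold change of its 10 genes at this step was -1.57, so the sum does not stand for the typical gene of the list. Rises numbered 5 of 8 for microglial, 4 of 8 for choroid plexus (1 fell) and 1 of 3 for erythroid markers. The part of these cells in the falls of the replication genes was not tested.

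The genes with the largest falls at P14 fell again. Rrm2 had 0 to 6.20 CPM at P60 with saline (median 2.19) against a median of 12.8 CPM at P14, a log2 fold change of -2.34 ± 0.30 (adjusted p = 2.97e-08). Mcm10 had 0 to 1.36 CPM (median 0.194), with 11 counts in all 12 libraries, and a log2 fold change of -2.74 ± 0.48 (adjusted p = 1.07e-05). Orc1 had 5 counts in all 12 libraries and was at 0 in 8 of them, with a log2 fold change of -2.43 ± 0.55 (adjusted p = 0.00039). At P60 with saline a count of 0 allows a level of up to 0.929 to 3.74 CPM, depending on the library and taking 3 counts as the limit, so these levels were close to the limit of detection. Chaf1b and Pole had log2 fold changes of -1.96 ± 0.41 (adjusted p = 0.000135) and -1.81 ± 0.27 (adjusted p = 7.27e-07).

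Pole2 and Rpa1 were the 2 genes that rose. Pole2, the second subunit of polymerase epsilon, had 0 to 9.97 CPM at P60 with saline (median 3.60) against 0 to 6.61 CPM at P14 (median 1.66), a log2 fold change of 0.83 ± 0.35 (adjusted p = 0.0486). Rpa1, the large subunit of the protein that coats single-stranded DNA and that also acts in repair, had 41.0 to 88.3 CPM (median 63.4) against 36.5 to 88.5 CPM at P14 (median 51.9), a log2 fold change of 0.24 ± 0.10 (adjusted p = 0.0415). Both rises were within overlapping ranges, and neither passed with the replicate number as a block (adjusted p = 0.256 and 0.11).

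**Figure D3:**
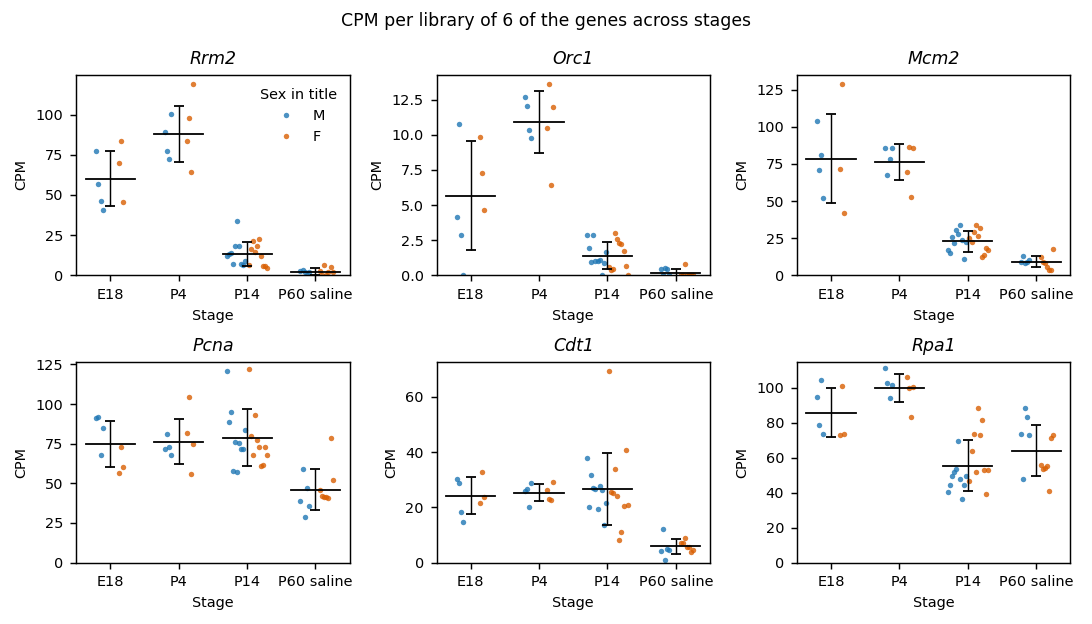
CPM per library of Rrm2, Orc1, Mcm2, Pcna, Cdt1 and Rpa1 by stage (points, coloured by the sex in the title), with the mean and SD as bars. Rrm2, Orc1 and Mcm2 drop at P14 and again at P60, Pcna and Cdt1 keep their level until P14, and Rpa1 lies at 36.5 CPM or above in every library shown.

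At P60 with saline the genes had kept very different shares of their P4 level, from 1.57% for Mcm10 to 64.1% for Rpa1, with a median of 26.5%. By role, the median share was 6.38% for chromatin assembly, 17.1% for licensing, 17.3% for the helicase, 22.3% for nucleotide synthesis, 33.8% for the lagging strand, 37.4% for polymerases and 44.8% for the clamp and its loader. Subunits of 1 enzyme differed as well. Rrm2 kept 2.64% and Rrm1 22.3%, Pole kept 5.54% and Pole2 39.3%, and within the Mcm ring Mcm5 kept 11.0% and Mcm3 32.2%. These shares are ratios of mean CPM and were not tested against each other.

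Set per transcript length, Pcna had the highest mean level among the genes at P4 (50.2 CPM per kilobase) and at P60 with saline (30.3 CPM per kilobase). The 6 ring genes, whose products form a complex with 1 copy of each, ran at P4 in the order Mcm6 (46.5 CPM per kilobase), Mcm3 (41.2), Mcm5 (30.3), Mcm4 (27.1), Mcm2 (22.7) and Mcm7 (12.2). At P60 with saline Mcm3 came first, with 13.3 CPM per kilobase, ahead of Mcm6 with 8.06 and Mcm4 with 5.97. The lowest ring gene at P60 remained Mcm7, with 2.67 CPM per kilobase, close to Mcm2 with 2.73.

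**Figure D4:**
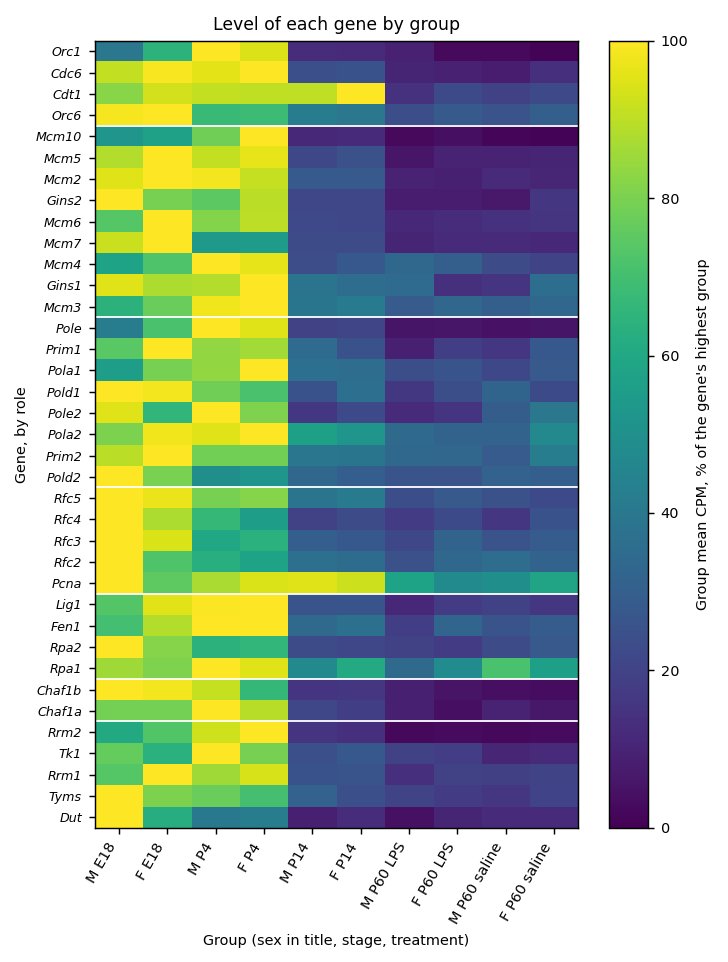
Mean CPM of each gene in each group, as a percent of the gene's highest group, with genes ordered by role. Most genes are brightest in the E18 and P4 columns and dark from P14 on, whereas Pcna and Cdt1 stay bright at P14.

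Over the whole span, 35 of the 37 genes were lower at P60 with saline than at E18 and none was higher, while 34.8% of all genes tested fell and 31.4% rose. The median log2 fold change was -1.72 for the 37 genes and -0.08 for all genes. Pcna and Rpa1 did not pass, with log2 fold changes of -0.33 and -0.04.

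From E18 to P4 the genes showed no common direction. At P4 against E18, 5 of the 37 genes rose, 6 fell and 26 did not pass, which is fewer than among all genes tested, of which 25.5% rose and 22.7% fell. The median log2 fold change was 0.13 for the 37 genes and 0.03 for all genes. E18 libraries spread widely, from 1218 to 2329 CPM in the sum of the 37 genes, against 1407 to 1915 CPM at P4.

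Orc1 had the largest rise, with 6.45 to 13.6 CPM at P4 (median 11.3) against 0 to 10.8 CPM at E18 (median 4.61), a log2 fold change of 1.03 ± 0.39 (adjusted p = 0.0252). Pole rose as well, with 34.0 to 68.5 CPM at P4 (median 46.3) against 2.92 to 43.8 CPM at E18 (median 33.1), a log2 fold change of 0.98 ± 0.28 (adjusted p = 0.00366). The ring gene Mcm4 had 65.4 to 112 CPM at P4 (median 104) against 18.3 to 87.6 CPM at E18 (median 75.7), a log2 fold change of 0.72 ± 0.15 (adjusted p = 1.54e-04). Libraries of the stages overlapped for all 3 genes, and the lowest E18 value of each was in male E18 replicate 4. Mcm3 and Pola1, the catalytic subunit of polymerase alpha, rose by smaller amounts, with log2 fold changes of 0.62 ± 0.18 and 0.59 ± 0.22 (adjusted p = 0.00496 and 0.0222).

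Dut had the largest fall, with 19.7 to 30.0 CPM at P4 (median 22.4) against 30.8 to 103 CPM at E18 (median 45.0). Its log2 fold change was -0.93 ± 0.32 (adjusted p = 0.0136), it was the only 1 of the 37 genes for which every P4 library was below every E18 library, and this held for 6.34% of all genes tested. Mcm7 had 26.9 to 45.8 CPM at P4 (median 36.7) against 30.2 to 111 CPM at E18 (median 57.7), a log2 fold change of -0.73 ± 0.24 (adjusted p = 0.00999). Pold2 had 12.5 to 17.0 CPM at P4 (median 15.8) against 14.4 to 37.6 CPM at E18 (median 25.7), a log2 fold change of -0.71 ± 0.20 (adjusted p = 0.00366). The E18 ranges of both genes were several times as wide as those at P4. Rfc3, Orc6 and Rfc2 fell by 0.58 ± 0.22, 0.47 ± 0.18 and 0.47 ± 0.19 on the log2 scale (adjusted p = 0.029, 0.032 and 0.0356).

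Transcript length moved with these changes. The 5 genes that rose have transcripts of 3014 to 7163 nucleotides and the 6 that fell have transcripts of 1020 to 4995 nucleotides. Among all genes tested the median log2 fold change was -0.51 below 1500 nucleotides, -0.08 from 1500 to under 3000 and 0.24 from 3000, and among the 37 genes it was -0.50, 0.11 and 0.28. Transcripts of up to 1500 nucleotides took 22.6% and 45.0% of counts in male E18 replicates 3 and 4, against 10.4% to 14.9% in the other 5 E18 libraries. Ttr alone held 10.4% and 24.8% of counts in these replicates, and under 10% in each of the other 5. The shares of short transcripts were not computed without Ttr. In male E18 replicate 4 the 45.0% less the 24.8% of Ttr still exceeded 14.9%, so short transcripts other than Ttr were raised as well. Whether replicate 3 shared this with replicate 4 was not tested. Both libraries carry the same date, and without them 4 genes passed: Mcm4 rose (log2 fold change of 0.47 ± 0.15, adjusted p = 0.0113), and Mcm7, Pold2 and Rfc3 fell (-0.81, -0.81 and -0.57). Neuronal markers summed to 91.1 to 284.5 CPM at P4 against 643.5 to 3314 CPM at E18, with 8 of 9 lower at P4. Neutrophil markers summed to 289 to 8581 CPM at P4 against 182 to 1530 CPM at E18, with 7 of 8 higher. Microglial markers rose in 7 of 8 cases, astrocyte markers in 4 of 8 and monocyte markers in 3 of 7 (1 fell), while all 3 erythroid markers tested fell and neural progenitor markers fell in 4 of 10 cases and rose in 2. Of the choroid plexus markers 3 of 8 rose and 1 fell, of the border macrophage markers 1 of 8 rose and 2 fell, and 1 of 8 rose in each of the endothelial and oligodendrocyte lineage lists. The part of these cells in the changes was not tested.

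**Figure D5:**
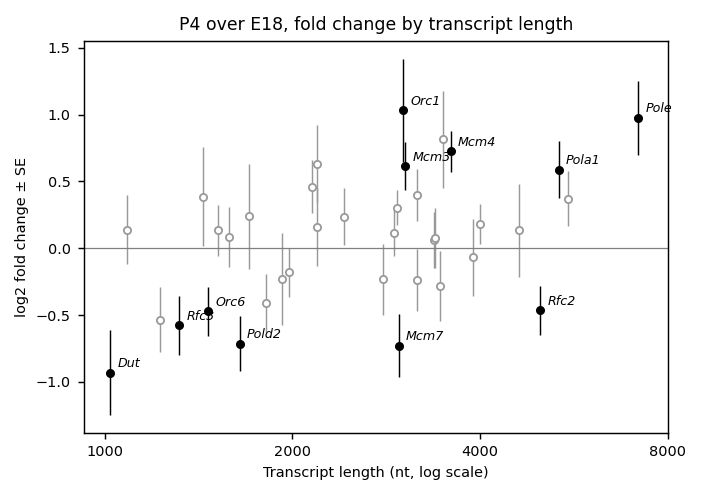
Log2 fold change ± SE at P4 against E18 of each gene by the length of its transcript (log scale). Filled points passed the test. All 5 genes that rose are at 3014 nucleotides or more, and 4 of the 6 that fell are at 1646 or less.

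Within P14, the libraries of the latest of 3 dates had a mean sum of 538 CPM (n = 6), against 653 CPM at the earliest date (n = 6) and 712 CPM at the date between them (n = 8). Of the 37 genes, 31 had their lowest mean at the latest date (83.8%), as did 53.4% of the 13794 genes with at least 1 CPM. Markers of other cells differed by date as well. Neuronal markers summed to 15.3 to 35.7 CPM at the latest date against 24.9 to 283 CPM at the other dates, and monocyte markers to 595 to 933 CPM against 866 to 2221 CPM. Microglial markers summed to 26613 to 30783 CPM at the latest date against 13989 to 26973 CPM at the others. Their part in the difference between dates was not tested. Every P14 date mean was below every P4 date mean, of which the lowest was 1445 CPM.

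Other genes of the same pathways were counted beside all genes tested, of which 20.8% fell and 20.6% rose at P14 against P4, and 25.7% fell and 18.5% rose at P60 with saline against P14. Differences from these shares were not tested. Of 37 further replisome genes found in the table, 22 fell and 3 rose at P14 against P4, among those that fell Wdhd1, a fork protein, by -1.63 ± 0.16, and the nuclease-helicase Dna2 by -1.92 ± 0.19 (log2 fold changes; adjusted p = 4.71e-11 and 5.72e-11). At P60 with saline against P14, 12 fell and 2 rose. Of 28 further nucleotide synthesis genes, 10 fell and 3 rose at P14 against P4, and 3 fell and 6 rose at P60 with saline against P14. Deoxycytidine kinase Dck fell at P14, with a log2 fold change of -1.26 ± 0.12 (adjusted p = 1.20e-11).

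Rrm2b, the reductase subunit that resting cells use in place of Rrm2, rose at P60 with saline against P14 with a log2 fold change of 1.23 ± 0.15 (adjusted p = 1.01e-08). Serine hydroxymethyltransferase Shmt1 had a log2 fold change of -1.72 ± 0.19 at that step (adjusted p = 6.51e-10). Of 24 genes that control S phase entry, 13 fell and 2 rose at P14 against P4, and 15 fell and 1 rose at P60 with saline against P14. The repressors E2f8 and E2f7, themselves made in S phase, had log2 fold changes of -2.51 ± 0.24 and -2.28 ± 0.23 at P14 (adjusted p = 3.04e-11 and 1.08e-10). At P60 against P14, the kinase gene Cdk2 and the DREAM complex gene Lin54 had log2 fold changes of -1.44 ± 0.13 and -1.50 ± 0.14 (adjusted p = 2.10e-12 and 1.43e-11).

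All 12 mitosis genes, such as Aurka and Top2a, fell at each of these 2 steps, with medians of -1.95 at P14 and -2.25 at P60 with saline on the log2 scale. At P4 against E18, 25.5% of all genes tested rose and 22.7% fell, and differences from these shares were not tested. Of the 12 mitosis genes 7 rose and 0 fell, and of the 24 S phase control genes 15 rose and 1 fell. Mki67, a marker of dividing cells, had a log2 fold change of 1.83 ± 0.33 at this step, and Rbl1, a pocket protein, 1.66 ± 0.21 (adjusted p = 1.16e-05 and 1.32e-08). Among the 37 replisome genes 13 rose and 3 fell, with 1.18 ± 0.15 for the large clamp loader subunit Rfc1 (adjusted p = 3.35e-08). Of the 28 nucleotide genes 1 rose and 6 fell, with 1.23 ± 0.17 for Samhd1, which breaks down deoxynucleotides (adjusted p = 7.35e-08). At E18 the mitosis genes summed to 549 and 550 CPM in male replicates 3 and 4, against 779 to 1183 CPM in the other libraries. S phase control genes summed to 911 and 587 CPM in these replicates, against 1025 to 1212 CPM in the others. At P4 the sums were at least 1252 and 1269 CPM. Calls of these lists without male E18 replicates 3 and 4 are not given here, and their transcript lengths were not examined.

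With LPS at P60 few of the genes passed the test. The sum of the 37 genes was 401 ± 47.3 CPM with LPS (SD, n = 13) against 456 ± 42.1 CPM with saline (n = 12), in overlapping ranges. Of the 37 genes, 19 passed the filter on low counts. Cdc6, Cdt1, Chaf1a, Chaf1b, Dut, Gins1, Gins2, Mcm10, Orc1, Pold1, Pole, Pole2, Prim1, Rfc4, Rfc5, Rrm2, Tk1 and Tyms were below it. In the mean of the sexes 1 gene rose and 1 fell, against 10.5% and 3.95% of the 10538 genes tested. Without the filter all 37 genes were tested, and again only Mcm4 and Rpa1 passed, against 9.18% of genes.

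Mcm4 had 15.9 to 53.6 CPM with LPS (median 30.2) against 17.4 to 28.5 CPM with saline (median 20.4). Its log2 fold change was 0.63 ± 0.17 (adjusted p = 0.00886), and the ranges overlapped. The other 5 ring genes did not pass, with log2 fold changes from -0.27 for Mcm5 to 0.05 for Mcm3. That Mcm4 differed from the other ring genes in its response was not tested.

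Rpa1 had 25.2 to 58.2 CPM with LPS (median 41.3) against 41.0 to 88.3 CPM with saline (median 63.4), a log2 fold change of -0.55 ± 0.13 (adjusted p = 0.00291). In males it had 25.2 to 51.0 CPM with LPS (median 32.7) against 47.7, 72.8, 73.4, 83.1 and 88.3 CPM with saline, a log2 fold change of -0.91 ± 0.18 (adjusted p = 6.92e-04). In females it had 41.1 to 58.2 CPM with LPS (median 48.0) against 41.0 to 73.1 CPM with saline (median 55.5), a log2 fold change of -0.19 ± 0.18 (adjusted p = 0.728). The difference between the sexes did not pass in the main test (-0.72 ± 0.26, adjusted p = 0.118) and passed with limma-voom and sample weights (-0.87 ± 0.21, adjusted p = 0.0102). Without the libraries dated 4.3.14, which were all given saline, Rpa1 did not pass in the mean of the sexes (log2 fold change of -0.38). The Rpa1 rise at P60 with saline against P14 rests on the same saline libraries, and was also not called without those dated 4.3.14. Rpa2, the partner subunit of Rpa1, came next by p and did not pass, with 3.50 to 11.3 CPM with LPS (median 7.22) against 6.56 to 13.7 CPM with saline (median 10.3) and a log2 fold change of -0.37 ± 0.20 (adjusted p = 0.245).

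In females no gene passed with LPS, against 5.06% of genes tested, although 2 genes had an unadjusted p under 0.05 in edgeR, and none passed with DESeq2 or limma-voom. In males Mcm4 rose (log2 fold change of 0.69 ± 0.24, adjusted p = 0.0409) and Rpa1 fell, against 11.9% and 7.57% of genes tested. The Mcm4 call in males was lost when any 1 of 5 libraries was left out (LPS replicates 2, 3 and 7, saline replicates 3 and 4). In the test of sex by LPS no gene passed with edgeR, against 0.883% of genes tested, 2 had an unadjusted p under 0.05, and DESeq2 and limma-voom each called 1.

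With LPS, 10.5% of all genes tested rose and 3.95% fell, and the further lists were not tested against these shares. Among the other genes of these pathways, Wdhd1 and Donson, both fork proteins, rose with LPS (log2 fold changes of 1.19 ± 0.27 and 0.46 ± 0.14, adjusted p = 0.00164 and 0.0272), the only 2 of 23 replisome genes tested to pass. CTP synthase Ctps and Samhd1 rose by 1.18 ± 0.20 and 0.63 ± 0.13, and Impdh1, which makes guanine nucleotides, fell by 0.78 ± 0.26 on the log2 scale (adjusted p = 4.26e-05, 7.85e-04 and 0.0449), as the 3 of 24 nucleotide genes that passed. Of 17 S phase control genes, the cell cycle inhibitor Cdkn1a (1.21 ± 0.20) and E2f3 (0.65 ± 0.15) rose, and 2 fell, among them the phosphatase gene Cdc25a (-0.70 ± 0.22; adjusted p = 5.19e-05, 0.00268 and 0.0269). None of the 3 mitosis genes that passed the filter was called, with Mki67 at 0.57 ± 0.26 (adjusted p = 0.15).

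Markers of other cells moved with LPS. Neutrophil markers summed to 366 to 5733 CPM with LPS against 17.4 to 424 CPM with saline, with all 6 markers tested higher. Monocyte markers summed to 396 to 1361 CPM against 163 to 599 CPM, with 5 of 7 higher, and endothelial markers to 446 to 1390 CPM against 557 to 1949 CPM, with 4 of 8 lower and 1 higher. Of the oligodendrocyte lineage markers tested 3 of 4 fell, of the microglial markers 2 of 8 fell, the 1 neuronal marker tested fell, and of the astrocyte markers 2 of 6 rose. Their part in the changes of Mcm4 and Rpa1 was not tested.

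No difference between the sexes passed for any of the 37 genes with edgeR at E18, P4, P14 or P60 with saline, where 0.0722%, 0.0433%, 0.0433% and 0.0433% of all genes tested did, nor with LPS, where 19 of the genes were tested and 0.142% of all genes passed. The number of the 37 genes with an unadjusted p under 0.05 was 3, 0, 2, 5 and 3. DESeq2 called none in any of these comparisons, and gave 21 to 37 of the genes an adjusted p. Limma-voom with sample weights called Pold2 and Rfc2 as higher in males at E18 (log2 fold changes of 0.81 ± 0.20 and 0.56 ± 0.17), Gins2 as lower in males at P60 with saline (-1.61 ± 0.43), and none elsewhere. The median SE of a log2 fold change between the sexes was 0.23 to 0.33 over the 4 stages. Estimates as large as 1.07 (Dut at E18) and -1.23 (Gins1 at P60 with saline) did not pass, so a difference of that size may go undetected here.

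The summed level of the 37 genes was 1620 ± 301 CPM in males and 1737 ± 559 CPM in females at E18, and 633 ± 86.2 CPM in males and 651.5 ± 100.4 CPM in females at P14. A test of sex by age over E18, P4, P14 and P60 with saline called none of the 37 genes with edgeR, and 0% of all genes tested passed. In it 3 of the genes, Gins1, Prim1 and Rpa1, had an unadjusted p under 0.05, and limma-voom with sample weights called 3, Gins2, Pold1 and Rpa1. DESeq2 gave none of the 37 genes an adjusted p in that test.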

How the data were processed

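The deposited counts are whole numbers per transcript row in 60 libraries. Per the submitters' processing notes, CASAVA 1.8.2, edgeR and genome build mm9 were used. Which aligner and counter were used, and whether counting used strand, is not stated in the sources used here. RNA came from Trizol and a stranded polyA kit, per the labels. Each symbol was represented by its row marked as best, or without a mark by the row with most counts, which gave 22869 genes from 28644 rows. CPM is counts over the total of these rows. Lengths and exon overlaps came from GENCODE vM21 on GRCm38.

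The 37 genes, the lists and the tests were chosen with earlier results of these data known. Named genes are the 6 largest called changes in each direction of a stage or LPS comparison, or the 3 of smallest p, and the 3 of smallest p of each further list. Further genes of the 37 given as examples of their role (such as Mcm2, Mcm6, Rrm1, Orc6, Pola2, Lig1 and Fen1 at P14, and Pcna at P60) were chosen after their values were seen. E18, P4, P14 and P60 saline were fitted together (47 libraries, 8 groups), and P60 LPS with P60 saline (25 libraries, 4 groups), with edgeR 4.0.16 (TMM, default filter, quasi-likelihood F test, two-sided, Benjamini-Hochberg over all genes, threshold 0.05) in R 4.3.3. The method was tested on simulated counts: of genes changed 2-fold, 72.6% were called at P14 against P4 and 78.5% with LPS. Of genes changed by 0.5 on the log2 scale, 19.4% and 18.3% were called. The changed genes were drawn at random and were far fewer than those called in the data. These rates therefore need not hold for the 37 genes. The analysis was repeated with DESeq2 1.42.0, with limma-voom (limma 3.58.1, weighted samples), with DESeq2 size factors, with no filter, other transcript rows, sex by characteristic, blocks by replicate number or date, and libraries left out.

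No library was a copy of another: counts of the 178 pairs within groups gave chi-square values of 1.96 to 101 per gene. Replicate numbers pair the sexes at P4, where they share a date in 4 of 4 cases and correlate by 0.413 to 0.575. At P14 they share a date in 10 of 10 cases and correlate by -0.258 to 0.522. Between P14 and P4 same numbers share a date in 0 cases. They correlate there by -0.193 to 0.364 in females and -0.443 to 0.027 in males. Between P60 saline and P14 they also share a date in 0 cases, with -0.561 to 0.341 and -0.578 to 0.258. The replicate block is thus no known pairing across stages. Annotated exons of genes on the opposite strand cover 78.8% of Fen1, 67.3% of Gins2, 52.5% of Chaf1a and at most 15.1% of 9 other genes of the set, whose counts are uncertain to that extent if strand was not used. The limits that a count of 0 allows cover counting error only.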

Additional observations from a re-analysis of the deposited data

Results flagged for a closer look

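In groups of 4 to 10 libraries, 20 values of the named genes lay apart from the rest of their group by Dixon's 95% limit, out of 189 groups tested. For normally distributed values chance flags about 1 in 20 groups. That rate need not hold here, since some groups rest on few counts or on values of 0. Female P60 saline replicate 6, in which Ttr held more than 10% of counts, was high for Dut (18.7 CPM) and Pcna (78.6 CPM). Male P60 LPS replicate 3 was high for Orc1 (4.67 CPM) and Pole (8.17 CPM). At P4 3 values were low, each in a library dated 4.1.14: Mcm4 in male replicate 3 (65.4 CPM), and Mcm3 (101 CPM) and Rpa2 (19.0 CPM) in female replicate 3.

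At P14, female replicate 1 was high for Cdt1 (69.2 CPM) and Pcna (122 CPM), male replicate 5 for Mcm7 (35.9 CPM) and Pole2 (6.16 CPM), male replicate 6 for Rrm2 (33.8 CPM) and Rpa1 (69.6 CPM), female replicate 3 for Pole2 (6.61 CPM) and female replicate 4 for Chaf1b (8.38 CPM). At P60, the remaining values were high for Rfc3 in male LPS replicate 2 (18.9 CPM), Rpa2 in female LPS replicate 1 (11.3 CPM), Orc1 in female saline replicate 3 (0.775 CPM, from 2 counts) and Mcm4 in female saline replicate 5 (28.5 CPM), and low for Mcm3 in female LPS replicate 2 (21.1 CPM).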

How the results depend on the processing

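The fall at P14 held in every alternative run, with 34 to 35 genes called when single libraries were left out. Scaling by DESeq2 size factors shifted the all-gene median by -0.11 on the log2 scale at P14 against P4 and the split of all calls from 2856 rises and 2888 falls to 2184 and 3634, and 35 of the 37 genes then fell. It shifted by -0.12 at P4 against E18, where 4 genes then rose and 8 fell, and by -0.18 at P60 with saline against E18. At P4 against E18 the 11 calls became 7 without libraries over 10% Ttr, 4 without male E18 replicates 3 and 4, which share a date, and 6 to 13 with single libraries left out (6 without female E18 replicate 2, 7 without male E18 replicate 4). At P60 with saline against P14 the 28 calls became 17 without the libraries dated 4.3.14, and 19 to 27 with single libraries left out. Over the whole span single libraries left 34 to 36 calls.

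With LPS the 2 calls in the mean of the sexes became 1 without the libraries dated 4.3.14. The 2 calls in males became 1 without the filter, with sex by characteristic, with the replicate block, and without the libraries dated 4.3.14, 4.8.14 or 4.9.14, and 1 to 2 with single libraries left out (1 without LPS replicate 2, 3 or 7, or saline replicate 3 or 4). In females sex by characteristic, and leaving out the libraries of the latest LPS date, each gave 1 call. Limma-voom gave 2 calls between the sexes at E18, 1 at P60 with saline, 3 for sex by age and 1 for sex by LPS, and DESeq2 gave 1 for sex by LPS. Single libraries left out gave 0 to 2 calls between the sexes at E18 (1 without male replicate 1, 2 without male replicate 2), 0 to 1 for sex by age, and 0 elsewhere between the sexes.

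With the replicate number as a block, 13 genes were called at P4 against E18, 35 at P14 against P4 (2 rises, 33 falls), 25 at P60 with saline against P14, 34 at P60 with saline against E18, 2 with LPS in the mean of the sexes, and 0 in each sex comparison, where the pairing at P4 changed no call. Of 1213 values of the 31 named gene results under alternatives, 1099 stayed on their side of the threshold, 96 lost and 18 gained significance, and 0 changed direction. The cause of these shifts was not tested. DESeq2 gave no adjusted p to any of the 37 genes for sex by age, so it has no value there. Low counts limit the genes near 0 at P60.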
